A study of Mus musculus with 32 samples.

Results

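The genes described here are 53 mouse genes of glutathione metabolism and of the antioxidant response driven by the transcription factor NRF2, measured by RNA sequencing in whole kidneys of mice with and without polycystic kidney disease (PKD). They were listed by gene name rather than by a threshold on measured values, with earlier results of these data known, and are 53 of the 53700 genes in the count table. Of the 53, 48 passed the filter on low counts and were tested among 13961 genes. The other 5 (*Slc7a11*, *Gsta1*, *Gstm3*, *Mgst2* and *Gpx2*) did not pass the filter.

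All 32 mice were male, of the strain C57BL/6, and were homozygous for iKspCre, a tamoxifen-inducible Cre recombinase under a promoter active in kidney tubule epithelium, and for LoxP sites around exons 2 to 11 of *Pkd1*. The 12 PKD mice and the 12 PKD + Salsalate mice received tamoxifen at 150 mg/kg on postnatal days 18 and 19, which deletes these exons, and are labelled 95 days old. The PKD + Salsalate mice were moved on postnatal day 81 to chow with 2.5 g/kg salsalate, a prodrug of salicylate, for 2 weeks, while the PKD mice stayed on normal chow. The 8 wildtype mice received no tamoxifen and are labelled 109 days old, so that genotype, tamoxifen and age cannot be told apart in any comparison with them. The study picked cystic mice of a similarly mild phenotype, and the deletion occurs only in the tubule cells in which the Cre is active, so each kidney is a mixture of deleted and undeleted cells. Fewer cells of a type and less RNA per cell cannot be told apart in such samples.

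Glutathione is a small peptide that cells use to detoxify peroxides and reactive chemicals, and the kidney tubule both makes it and breaks it down at its brush border. Under basal conditions KEAP1 holds NRF2 (gene *Nfe2l2*) in the cytoplasm and passes it on for degradation. When KEAP1 is modified by reactive compounds, NRF2 accumulates, binds antioxidant response elements together with small MAF proteins, and raises genes such as *Nqo1*, *Gclm* and *Srxn1*.

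The antioxidant response element was looked for as the letters TGACTCAGC or TGAGTCAGC, on both strands, in the 1000 bases before the start of each gene's canonical transcript (GENCODE mouse release M39, build GRCm39). These letters include the shorter sequence bound by AP-1, so a match is a description and not a binding site. Of the 53 genes, 5 (9.43%) held a match, and so did 2.29% of the 12898 protein-coding genes tested. The letters TGACNNNGC, which match TGACTCAGC but not TGAGTCAGC, were in 37.7% of the 53 and 29.6% of the protein-coding genes tested. These shares therefore do not hold all the strict matches. The 5 matches are given on the strand of the gene, 5′ to 3′, with the matched bases in capitals, because they are the only places in these windows where the strict element was found. *Srxn1* holds it between 45 and 37 bases before its start (chr2:151947389-151947418, + strand), *Osgin1* between 70 and 62 (chr8:120163777-120163806, + strand), *Prdx1* between 78 and 70 (chr4:116542653-116542682, + strand), *Gsta4* between 86 and 78 (chr9:78099133-78099162, + strand) and *Gstm5* between 945 and 937 (chr3:107802182-107802211, + strand). In *Osgin1* and *Prdx1* the element is read from the opposite strand, so its reverse complement appears.
*Srxn1*: aaattcacccTGAGTCAGCggccgggcgcg
*Osgin1*: aggggcccctGCTGACTCAcgcttatgaaa
*Prdx1*: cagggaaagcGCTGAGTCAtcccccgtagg
*Gsta4*: tactcagtaaTGAGTCAGCgaaaactttta
*Gstm5*: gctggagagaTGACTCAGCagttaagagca
The 5 genes did not move together. In PKD kidneys *Gsta4* was lower and *Gstm5* higher than in wildtype kidneys, and *Srxn1*, *Osgin1* and *Prdx1* did not pass the test.

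The total count on genes ranged from 11193136 to 109807664 per kidney, and the 53 genes together took between 3.22% and 4.66% of it. Levels are given as CPM, a gene's count relative to the library total, after scaling with the trimmed mean of M-values, as lowest, median and highest kidney of a group. Per kilobase of exon, the mean wildtype level was highest for *Gpx3*, the plasma glutathione peroxidase that the proximal tubule makes for the whole body, at 8539 CPM per kb, followed by *Gpx1* at 2039, *Gpx4* at 1048, *Prdx5* at 652 and *Ggt1* at 311. The lowest of the tested genes were *Gstm7* at 1.96 and *Gstm6* at 0.399 CPM per kb. Of the genes that did not pass the filter, *Gsta1* reached at most 0.969 CPM, *Gstm3* 1.34, *Mgst2* 0.646 and *Gpx2* 0.127 in any kidney. The coefficient of variation between kidneys had a median over the 48 genes of 17.5% in wildtype, 12.1% in PKD and 11.1% in PKD + Salsalate. Of the 8 wildtype libraries, 5 have names ending in R and 3 do not, and no PKD library has that ending. PKD replicate 10 held liver transcripts, with a summed CPM of 16 hepatocyte markers of 4689 against at most 230.4 in the other PKD kidneys. *Pkd1* itself was counted at a median of 66.4 CPM in wildtype, 92.2 in PKD and 91.6 in PKD + Salsalate, but the table counts the whole gene with its undeleted exons, so it does not check the deletion.

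The comparison of PKD with wildtype asks how the glutathione and antioxidant genes differ in the cystic kidney. Of the 48 genes tested, 11 were higher and 16 lower in PKD at an adjusted p under 0.05. That is 56.2%, close to the 49.1% of all genes tested that passed, and by direction 24.1% of all genes were higher and 25% lower. With wildtype limited to its 5 R libraries the split was 14 higher and 11 lower, where 8297 of all genes passed. With the other 3 alone it was 5 higher and 21 lower, where 5660 of all genes passed. All wildtype libraries together gave 6852. Log2 fold changes ran from -0.74 to 0.90 with a median of -0.12, against -0.0091 over all genes. No member had wildtype and PKD groups that did not overlap, while 7.28% of all genes did.

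The wildtype libraries were then compared with each other. Between the 5 libraries ending in R and the other 3, 16 of the 48 members (33.3%) differed at an adjusted p under 0.05, 15 of them lower and *Gpx4* higher in the libraries ending in R, beside 48.1% of all genes. Against both sets taken separately, 12 members passed in the same direction, compared with 19.2% of all genes. The 5 that were higher against both were *Gstm5*, *Gstm6*, *Gsto1*, *Gpx8* and *Prdx4*, and the 7 that were lower against both were *Keap1*, *Gclm*, *Ggt1*, *Gsta4*, *Gstm2*, *Gstm4* and *Gstz1*. All 12 are among the 27. A further 11 members passed only against the R set, and 12 passed only against the other set. The matching shares over all genes were not computed. *Sod3* and *Prdx6* passed against both in opposite directions, which 6% of all genes did.

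**Figure D1:**
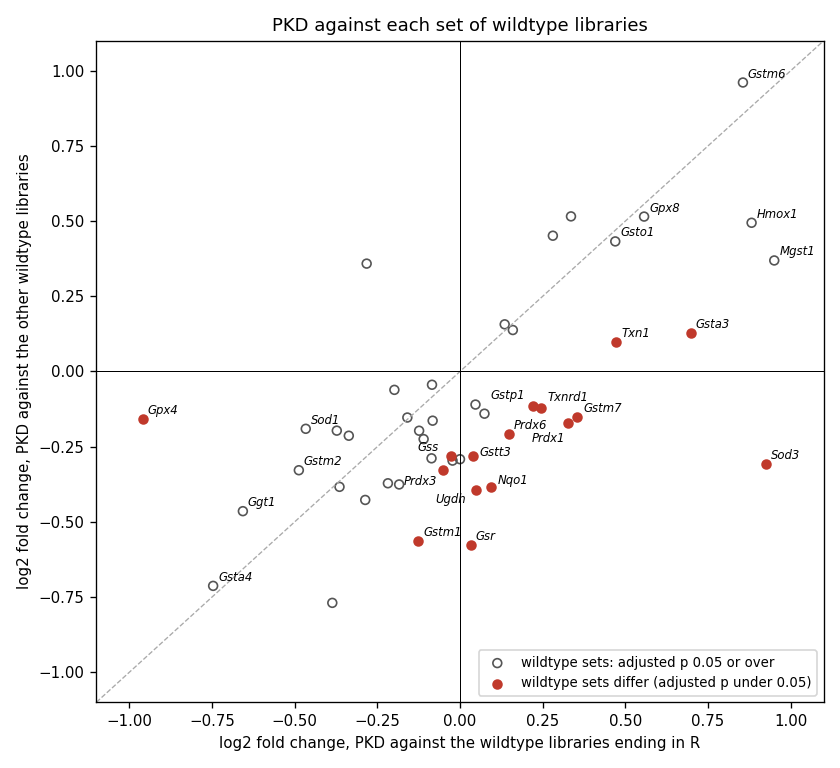
Log2 fold change of each of the 48 genes tested in PKD against the 5 wildtype libraries ending in R (horizontal axis) and against the 3 others (vertical axis), with filled points for the 16 genes whose wildtype sets differed. Points near the dashed line have the same value against both sets, as *Gstm6* and *Gsta4* do, while *Sod3* was at 0.93 on the horizontal and -0.31 on the vertical axis.

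*Sod3*, the extracellular superoxide dismutase, shows the split most plainly. Its CPM in the R libraries was between 293 and 424, in the other wildtype libraries between 744 and 884, in PKD between 555 and 769 and in PKD + Salsalate between 572 and 736. Every kidney of both PKD groups lay above the R libraries, and the highest of the PKD kidneys reached into the range of the other wildtype libraries. The log2 fold change of PKD was 0.93 against the R set (adjusted p = 3.14e-11) and -0.31 against the other set (adjusted p = 0.00692), and with all 8 wildtype kidneys it was 0.33 ± 0.15 (SE, adjusted p = 0.0684). *Prdx6*, a peroxiredoxin with phospholipase activity, was 0.15 higher against the R set (adjusted p = 0.0347) and -0.21 against the other set (adjusted p = 0.0195).

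Regulators of the response were measured first. *Nfe2l2* (chr2:75504739-75534985, - strand), which encodes NRF2, had 62.4, 70.6 and 82.8 CPM in wildtype, 69.2, 77.8 and 92.8 in PKD and 72.2, 75.6 and 82.4 in PKD + Salsalate. Its log2 fold change in PKD was 0.15 ± 0.055 (adjusted p = 0.0232), with 10 of 12 PKD kidneys above the wildtype median and groups that overlapped. It was 0.16 against the R set (adjusted p = 0.0313) and 0.14 against the other set (adjusted p = 0.155), and the call was lost without wildtype replicate 2 (adjusted p = 0.0664) or replicate 4 (adjusted p = 0.067). *Keap1* (chr9:21141026-21150679, - strand), the inhibitor of NRF2, went the other way. It had 61.5, 65.0 and 77.7 CPM in wildtype, 49.1, 52.8 and 64.4 in PKD and 52.9, 57.2 and 61.8 in PKD + Salsalate. All 12 PKD kidneys lay below the wildtype median, and the log2 fold change was -0.31 ± 0.051 (adjusted p = 7.75e-06), at -0.37 against the R set and -0.20 against the other.

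Among the genes of glutathione synthesis and recycling, none rose in PKD and 2 of 5 tested fell, beside 24.1% of all genes higher and 25% lower. *Ggt1*, the brush border enzyme that starts the breakdown of extracellular glutathione, had 1335, 1872 and 2326 CPM in wildtype, 1043, 1227 and 1471 in PKD and 918, 1328 and 1513 in PKD + Salsalate. It fell by 0.59 ± 0.089 on the log2 scale (adjusted p = 2.13e-06), with all 12 PKD kidneys below the wildtype median. *Gclm*, the modifier subunit of the enzyme that limits glutathione synthesis, had 264, 348 and 403 CPM in wildtype, 241, 288 and 319 in PKD and 240, 262 and 340.2 in PKD + Salsalate. It fell by 0.26 ± 0.072 (adjusted p = 0.00361) and passed against both wildtype sets. The catalytic subunit *Gclc* did not pass, with 179.6, 228 and 292 CPM in wildtype, 149.6, 239.6 and 279 in PKD, 174, 208 and 304 in PKD + Salsalate, and a log2 fold change in PKD of -0.014 ± 0.12 (adjusted p = 0.93). Glutathione synthetase *Gss* was at -0.13 (adjusted p = 0.0988). Glutathione reductase *Gsr* was at -0.23 (adjusted p = 0.0934) with all wildtype kidneys, 0.032 against the R set and -0.58 against the other set. *Slc7a11*, the cystine importer whose activity feeds glutathione synthesis in many cell lines, was near the limit of detection in every kidney, with at most 0.254 CPM in wildtype, 0.38 in PKD and 0.432 in PKD + Salsalate.

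The oxidoreductases and NADPH enzymes include the genes most used to read NRF2 activity. Only *Hmox1* and *Txn1* of the 9 passed in PKD, both higher, beside the 49.1% of all genes that passed. *Nqo1* (chr8:108113835-108129934, - strand), a quinone reductase, had 35.1, 57.1 and 76.2 CPM in wildtype, 36.5, 49.8 and 62.6 in PKD and 40.0, 57.2 and 66.4 in PKD + Salsalate. Its log2 fold change in PKD was -0.11 ± 0.12 (adjusted p = 0.472), at 0.093 against the R set (adjusted p = 0.558) and -0.39 against the other set (adjusted p = 0.0428). *Srxn1*, which reduces overoxidized peroxiredoxins and carries the element shown above, had 54.9, 59.3 and 72.4 CPM in wildtype, 49.0, 59.7 and 84.2 in PKD and 53.8, 61.6 and 76.5 in PKD + Salsalate, a log2 fold change in PKD of -0.012 ± 0.090 (adjusted p = 0.923). *Txnrd1*, the cytosolic thioredoxin reductase, had 93.0, 125 and 153 CPM in wildtype, 106, 125 and 179.6 in PKD and 119.7, 136 and 180 in PKD + Salsalate, at 0.095 ± 0.10 in PKD (adjusted p = 0.446). Each of these 3 had groups that overlapped.

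*Hmox1* (chr8:75820241-75827217, + strand), heme oxygenase 1, which breaks down heme, is controlled by NRF2 but also by other stress and heme signals and is high in macrophages. It had 12.9, 20.1 and 26.9 CPM in wildtype, 18.4, 29.1 and 53.2 in PKD and 16.1, 25.9 and 35.4 in PKD + Salsalate. The log2 fold change in PKD was 0.72 ± 0.18 (adjusted p = 0.00164), with 11 of 12 PKD kidneys above the wildtype median. It was 0.88 against the R set (adjusted p = 0.000764) and 0.49 against the other set (adjusted p = 0.116). Thioredoxin, *Txn1*, rose by 0.32 ± 0.093 on the log2 scale (adjusted p = 0.00497), at 0.47 against the R set and 0.097 against the other set (adjusted p = 0.529). The remaining *Osgin1*, *Ephx1*, *Ugdh* and *G6pdx* lay between -0.14 and -0.070 with all wildtype kidneys and did not pass. None of them passed against the R set. Against the other set *Ugdh* was at -0.39 (adjusted p = 0.00475) and *G6pdx* at -0.30 (adjusted p = 0.0335), and *Ephx1* did not pass. *Osgin1* was at -0.28 against the R set (adjusted p = 0.419) and 0.36 against the other set (adjusted p = 0.461). *Osgin1* varied widely, from 82.9 to 342 CPM in wildtype and from 44.0 to 259 in PKD + Salsalate.

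**Figure D2:**
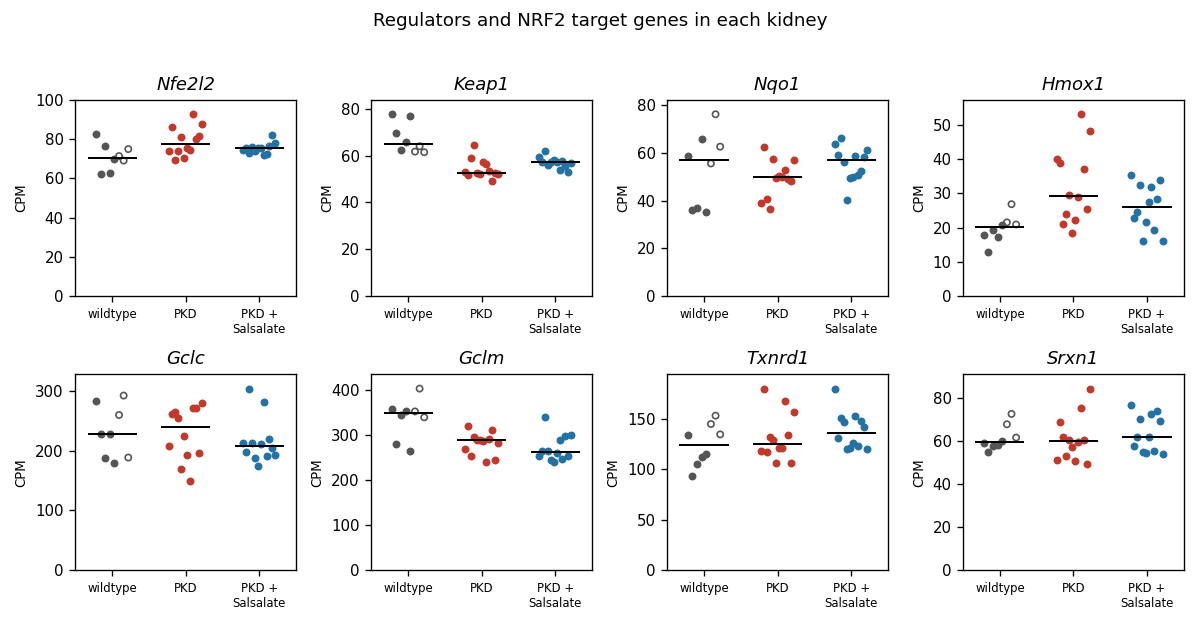
CPM on linear axes from 0 of *Nfe2l2*, *Keap1* and 6 genes that NRF2 is known to raise, with a point for each kidney (8 wildtype, 12 PKD, 12 PKD + Salsalate), a bar at each group's median, and open points for the 3 wildtype libraries without R. The groups overlap for all 8 genes, and all 12 PKD kidneys lie below the wildtype median for *Keap1* and *Gclm*.

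The kidneys also differed in their cell type markers. In PKD all 7 markers of injured tubule, all 10 tested leukocyte markers and all 6 fibroblast markers were higher, and all 5 red blood cell markers were lower. Over all genes, 24.1% were higher in PKD and 25% lower. Summed leukocyte CPM was between 314.9 and 519.6 in wildtype and between 768.4 and 1227 in PKD. Summed injury marker CPM was between 384.3 and 678.1 in wildtype and between 1442 and 3181 in PKD. Of the 14 proximal tubule markers 2 were higher and 4 lower. Their summed CPM split by wildtype set, from 12130 to 15900 in the libraries ending in R and from 20150 to 23730 in the others, and PKD, from 13650 to 17630, lay below each of the others. Distal tubule and collecting duct markers had 1 higher and 6 lower of 12, and their sums split likewise, at 3808 to 4883 in the R set, 5543 to 5946 in the other set and 3713 to 4732 in PKD. The share of a table's reads that fell on genes was 73.6 to 76.4% in the R set, 80.9 to 83.1% in the other set and 74.2 to 82.9% in PKD. The part of these shifts in the changes of the antioxidant genes was not tested.

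Glutathione transferases join glutathione to drugs, lipid peroxidation products and other electrophiles. The list holds 21 of them, 18 were tested, and in PKD 6 were higher and 7 lower, beside the 49.1% of all genes that passed. Against only the R libraries 6 were higher and 4 lower, and against only the other 3 libraries 3 were higher and 8 lower. Of all genes, 8297 passed against the R libraries and 5660 against the other 3. In the alpha class, *Gsta4*, which acts on the lipid peroxidation product 4-hydroxynonenal, had 23.7, 31.6 and 55.1 CPM in wildtype, 11.4, 20.6 and 25.1 in PKD and 19.6, 26.1 and 46.4 in PKD + Salsalate. It was the largest fall of the 48 genes, at -0.74 ± 0.14 (adjusted p = 3.78e-05), and held close values of -0.75 and -0.71 against the wildtype sets. *Gsta3* went up by 0.45 ± 0.12 (adjusted p = 0.00251), from 65.5, 112 and 132 CPM to 94.0, 138 and 169, and had 107, 137 and 166 in PKD + Salsalate. Its value was 0.70 against the R set and 0.13 against the other (adjusted p = 0.508).

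The mu class genes *Gstm1* to *Gstm7* lie in 1 cluster on chromosome 3, between bases 107803137 and 107952210 of GRCm39, and they did not move as a block. *Gstm6* had the largest rise of the 48 genes, 0.90 ± 0.21 on the log2 scale (adjusted p = 0.00086), at low levels of 1.09, 1.49 and 1.98 CPM in wildtype, 1.21, 2.73 and 6.39 in PKD and 2.25, 2.61 and 4.61 in PKD + Salsalate. Leaving out the PKD kidney that held liver transcripts, replicate 10, gave 0.74. *Gstm5* rose by 0.40 ± 0.066 (adjusted p = 7.17e-06). *Gstm2* fell by 0.43 ± 0.087 (adjusted p = 0.000136), from 62.1, 71.5 and 83.7 CPM in wildtype to 35.8, 52.5 and 67.9 in PKD, with 47.5, 63.1 and 72.7 in PKD + Salsalate. *Gstm4* fell by 0.34 ± 0.074 (adjusted p = 0.000276). *Gstm1*, the most abundant of the cluster per kilobase, was at -0.31 ± 0.098 (adjusted p = 0.00968), at -0.13 against the R set (adjusted p = 0.272) and -0.56 against the other.

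Of the other soluble transferases, *Gsto1*, of the omega class that acts on arsenic and on thiol exchange, rose by 0.45 ± 0.092 (adjusted p = 0.000139), with 28.0, 35.4 and 54.5 CPM in wildtype, 39.4, 49.1 and 57.9 in PKD and 42.3, 48.2 and 61.0 in PKD + Salsalate. *Gstz1*, a step of tyrosine breakdown, fell by 0.37 ± 0.071 (adjusted p = 5.83e-05), with 364, 410.3 and 504 CPM in wildtype, 282, 308 and 378 in PKD and 254, 335 and 401 in PKD + Salsalate. Both passed against each wildtype set. Of the theta class, *Gstt1* rose by 0.14 (adjusted p = 0.0318), a call that was lost in 7 of the 32 fits without 1 kidney and that passed against neither wildtype set (adjusted p = 0.0675 and 0.106), and *Gstt2* fell by 0.28 (adjusted p = 0.0109), while *Gstt3* was at -0.092 (adjusted p = 0.288). Against the R set *Gstt2* was at -0.22 (adjusted p = 0.0642), and against the other set at -0.37 (adjusted p = 0.015). *Gstp1*, of the pi class, was at 0.087 (adjusted p = 0.454) and *Gstk1*, of the kappa class, at -0.11 (adjusted p = 0.252). The microsomal *Mgst1* rose by 0.70 ± 0.20 (adjusted p = 0.0045), with 21.4, 39.2 and 58.8 CPM in wildtype, 43.1, 51.3 and 184 in PKD and 40.0, 52.5 and 59.9 in PKD + Salsalate. The value of 184 was PKD replicate 10, the kidney with liver transcripts, and without it the log2 fold change was 0.43 (adjusted p = 0.00251). Set against the 3 non-R wildtype kidneys it was at 0.37 (adjusted p = 0.283), and *Mgst3* was at -0.15 (adjusted p = 0.133) with all 8.

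Of the 4 glutathione peroxidases tested 1 was higher and 2 lower in PKD, and of the 6 peroxiredoxins 1 was higher and 2 lower. Over all genes, 24.1% were higher and 25% lower. *Gpx4*, which reduces lipid peroxides in membranes and guards against ferroptosis, had 1183, 1823 and 2704 CPM in wildtype, 689, 1126 and 1543 in PKD and 889, 1177 and 1411 in PKD + Salsalate. Its log2 fold change in PKD was -0.71 ± 0.13 (adjusted p = 3.98e-05), but it was -0.96 against the R set and -0.16 against the other set (adjusted p = 0.389). *Gpx3* fell by 0.29 ± 0.072 (adjusted p = 0.00122), from a median of 25500 to 21320 CPM. It was at -0.34 against the R set (adjusted p = 0.000462) and -0.21 against the other set (adjusted p = 0.0745). *Gpx8*, an enzyme of the endoplasmic reticulum, rose by 0.54 ± 0.088 (adjusted p = 5.69e-06), with 8.13, 10.1 and 12.9 CPM in wildtype, 12.4, 14.7 and 17.2 in PKD and 11.5, 14.0 and 16.9 in PKD + Salsalate, and passed against both sets. *Prdx4*, the peroxiredoxin of the same compartment, rose by 0.34 ± 0.071 (adjusted p = 0.000171), with 14.8, 18.5 and 21.6 CPM in wildtype, 19.9, 23.7 and 28.5 in PKD and 20.4, 21.9 and 24.9 in PKD + Salsalate. It too passed against both sets. *Gpx1*, the abundant cytosolic peroxidase, was at -0.16 (adjusted p = 0.138) and *Prdx5* at -0.12 (adjusted p = 0.368). *Prdx1*, a cytosolic peroxiredoxin, was at 0.12 (adjusted p = 0.264) with all wildtype kidneys, 0.33 against the R set and -0.17 against the other. *Prdx2*, abundant in red blood cells, fell by 0.15 ± 0.05 (adjusted p = 0.0162) beside the fall of all 5 red blood cell markers, whose part in it was not tested. *Prdx2* was at -0.20 against the R set (adjusted p = 0.00244) and -0.061 against the other set (adjusted p = 0.488).

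*Prdx3*, the mitochondrial peroxiredoxin, fell by 0.16 ± 0.065 (adjusted p = 0.0395), with 128, 154 and 186 CPM in wildtype, 124, 134 and 154 in PKD and 122, 139.7 and 162 in PKD + Salsalate. It had an adjusted p over 0.05 in 11 of the 32 fits that left out 1 kidney. Its value was -0.050 against the R set (adjusted p = 0.532) and -0.33 against the other set (adjusted p = 0.00129). *Sod1*, the cytosolic superoxide dismutase, fell by 0.37 ± 0.11 (adjusted p = 0.00439), with 547, 602 and 1001 CPM in wildtype, 369, 518 and 645 in PKD and 382, 555 and 679.9 in PKD + Salsalate. It was at -0.47 against the R set and -0.19 against the other set (adjusted p = 0.294). Of the dismutases and catalase 2 of 4 were lower and none higher, beside 25% and 24.1% of all genes. *Sod2*, in mitochondria, was at -0.17 (adjusted p = 0.0261), at -0.086 against the R set (adjusted p = 0.265) and -0.29 against the other set, and the call was lost without wildtype replicate 4, 6 or 7 (adjusted p from 0.0557 to 0.0622). Catalase, *Cat*, was at -0.15 (adjusted p = 0.0532).

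The comparison of PKD + Salsalate with PKD asks what 2 weeks of the drug changed in the antioxidant genes of cystic kidneys. Wildtype kidneys enter it only through the shared filter, scaling and estimate of spread. Of the 48 genes 1, *Gstm7*, passed at an adjusted p under 0.05, and none was lower. Over all genes 0.58% passed, 0.251% higher and 0.329% lower. The median log2 fold change of the 48 genes was 0.044, against -0.010 over all genes, and 31 of 48 were positive. In a list of other genes of the same pathways, described below, the median was also 0.044, and 50 of 69 were positive.

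*Gstm7* (chr3:107832278-107839187, - strand), a mu class transferase, had 5.85, 8.15 and 11.3 CPM in wildtype, 7.35, 8.94 and 10.6 in PKD and 11.3, 12.6 and 14.3 in PKD + Salsalate. Every treated kidney was above every untreated PKD kidney, a separation that only 0.0287% of all genes tested had in this comparison. The log2 fold change was 0.47 ± 0.079, a fold of 1.39 (adjusted p = 0.00243). Across 42 alternative fits it stayed between 0.45 and 0.50 with adjusted p between 9.64e-07 and 0.0186. Its counts ran from 79 to 421 in PKD and from 161 to 1469 in PKD + Salsalate, and none of its 5265 windows of 100 bases in annotated transcripts occurs in another gene. In PKD against all wildtype kidneys *Gstm7* did not pass, at 0.13 ± 0.091 (adjusted p = 0.237). It passed as higher against the R set, at 0.35 (adjusted p = 0.000895), and was at -0.15 against the other set (adjusted p = 0.221).

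Beyond *Gstm7*, 9 more members had an unadjusted p under 0.05 and did not pass the adjustment. With *Gstm7*, 7 members were higher at this level, all of them transferases, and 3 were lower, beside 4.99% and 5.3% of all genes. Of the 18 transferases tested, 16 had a positive value, with a median of 0.11. The 6 transferases other than *Gstm7* are named here after their values were seen. *Gstt3* was at 0.22 ± 0.063 (adjusted p = 0.0979), with 28.6, 31.5 and 35.6 CPM in PKD and 31.6, 37.2 and 39.7 in PKD + Salsalate. *Gstm4* was at 0.23 ± 0.066 (adjusted p = 0.101), with 12.5, 15.5 and 18.4 CPM against 15.3, 17.7 and 20.3. For *Gsta4* the value was 0.42 ± 0.12 (adjusted p = 0.104). In these 3 the groups overlapped, with 8, 5 and 7 of 12 treated kidneys above every PKD kidney.

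*Gstm2* was at 0.24 (adjusted p = 0.169), *Gstm1* at 0.27 (adjusted p = 0.176) and *Gsta2* at 0.45 (adjusted p = 0.219). *Gsta2*, an alpha class enzyme, had 77.5, 176 and 296 CPM in wildtype, 70.7, 112 and 169.6 in PKD and 114, 155 and 257 in PKD + Salsalate. Of the 6, *Gsta2*, *Gsta4*, *Gstm1*, *Gstm2* and *Gstm4* were the transferases of these classes that were lower in PKD than in wildtype. For *Gsta2* that fall was -0.54 ± 0.18 (adjusted p = 0.0113), and it was -0.38 without wildtype replicate 1 (adjusted p = 0.0617), -0.39 against the R set (adjusted p = 0.0942) and -0.77 against the other set (adjusted p = 0.00886). Both comparisons use the same 12 PKD kidneys, so the opposite signs are not independent of each other. Against wildtype, PKD + Salsalate was at -0.090 for *Gsta2*, -0.32 for *Gsta4*, -0.041 for *Gstm1*, -0.19 for *Gstm2* and -0.12 for *Gstm4*, and none of these passed.

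The number that passed differed between fits. In a fit of the PKD and PKD + Salsalate kidneys alone 5 members passed, with only the 3 wildtype libraries without R 6 passed, with only the 5 libraries ending in R 2 passed, and with DESeq2 4 passed. All of these were transferases, and all were higher. Over all genes, the same fits called 195, 257, 145 and 199, in that order, against 81 in the main fit. Summed injury marker CPM was between 1442 and 3181 in PKD and between 1278 and 4053 in PKD + Salsalate, with medians of 2566 and 1832, and none of the 7 injury markers passed in edgeR, with 3 lower at an unadjusted p under 0.05. The value of 4053 was PKD + Salsalate replicate 11, and the next was 2338. Of the 12 distal tubule and collecting duct markers 11 had a positive log2 fold change, with a median of 0.105, and 3 were higher at an unadjusted p under 0.05. The part of either in the transferase values was not tested.

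**Figure D3:**
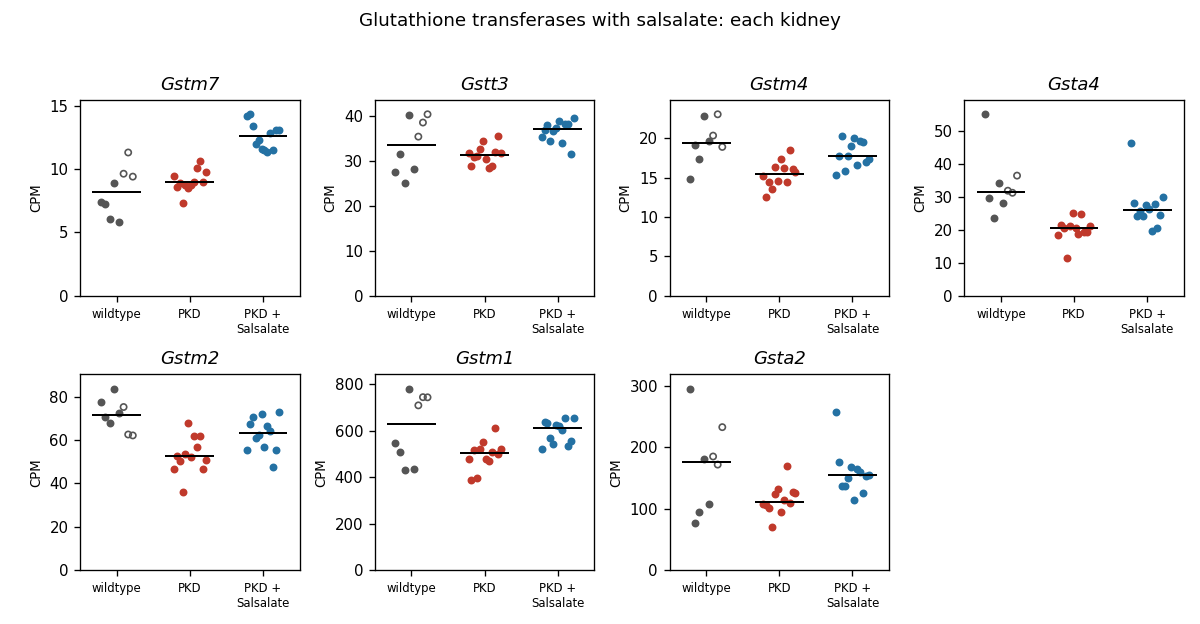
CPM on linear axes from 0 of *Gstm7* and of the 6 other transferases with an unadjusted p under 0.05 in PKD + Salsalate against PKD, with a point for each of 8 wildtype, 12 PKD and 12 PKD + Salsalate kidneys, bars at medians and open points for wildtype libraries without R. The treated and untreated PKD kidneys separate completely for *Gstm7* and overlap for the others.

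The genes usually read as NRF2 output did not pass with salsalate in the main fit. The transferases *Gsta2*, *Gsta4* and *Gstm1*, given above at 0.45, 0.42 and 0.27, are also known to respond to NRF2. They were higher at an unadjusted p under 0.05, and each passed in 2 of the 42 alternative fits. *Nqo1* was at 0.17 ± 0.11 (adjusted p = 0.671), with 10 of 12 treated kidneys above the PKD median. *Txnrd1* was at 0.063 ± 0.089 and *Srxn1* at 0.058 ± 0.080, *Gclm* at -0.051 ± 0.065 and *Gclc* at -0.084 ± 0.11, with adjusted p between 0.874 and 0.889. *Nfe2l2* was at -0.066 ± 0.049 (adjusted p = 0.723) and *Keap1* at 0.066 ± 0.046 (adjusted p = 0.703). The 3 members lower at an unadjusted p under 0.05 were *Hmox1* at -0.32 ± 0.16 (adjusted p = 0.478), *Txn1* at -0.17 ± 0.082 (adjusted p = 0.459) and *Prdx1* at -0.16 ± 0.078 (adjusted p = 0.482). No fit among the alternatives called any of these 3.

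**Figure D4:**
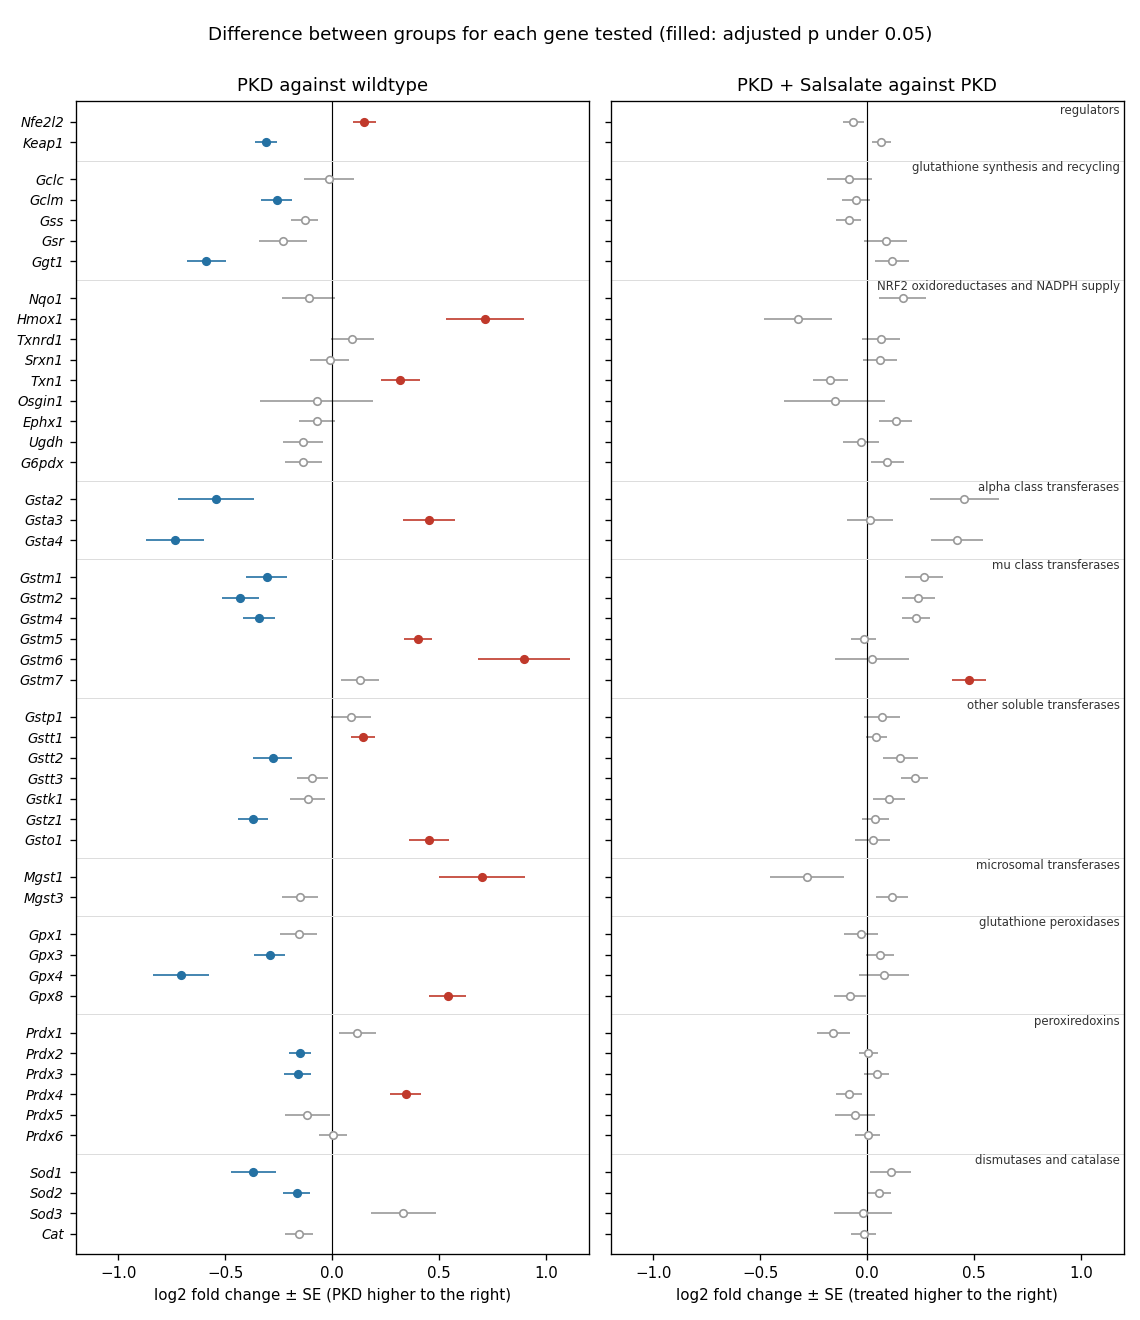
Log2 fold change with its standard error for each of the 48 genes tested, by role, in PKD against wildtype (left) and PKD + Salsalate against PKD (right), with filled points for an adjusted p under 0.05. The left side holds 11 filled points above 0 and 16 below, and the right side holds 1, *Gstm7* at 0.47.

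In PKD + Salsalate against wildtype, 8 of the 48 genes were higher and 10 lower, 37.5% beside 44.9% of all genes, of which 21.8% were higher and 23.2% lower. *Gstm6* (log2 fold change 0.92) and *Gstm7* (0.61) were the only 2 members whose groups did not overlap, as 6.39% of all genes did. For *Gstm7* the margin was narrow, with the highest wildtype and the lowest treated kidney both at 11.3 CPM. The largest fall was *Gpx4*, at -0.63 (adjusted p = 0.000221), again from a value of -0.88 against the R set and -0.079 against the other (adjusted p = 0.704).

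Covariation with *Nqo1* was read across the 24 PKD kidneys, after centring log2 CPM within the treated and the untreated group. Of 15 genes known to respond to NRF2 that could be tested, 7 had an adjusted permutation p under 0.05 for Pearson's r, all positive, and 8 for Spearman's rho. The highest was *G6pdx*, which supplies NADPH, with r = 0.763 (adjusted p = 0.00135) and rho = 0.663 (adjusted p = 0.00645), a value that 0.394% of all genes tested reached. *Gsr* followed with r = 0.681 (adjusted p = 0.00367) and rho = 0.689 (adjusted p = 0.00645), reached by 3.08% of all genes. *Srxn1*, at r = 0.506 (adjusted p = 0.0384) and rho = 0.477 (adjusted p = 0.0482), was exceeded or matched by 14.8% of all genes, and *Gsta4*, at r = 0.472 (adjusted p = 0.0499) and rho = 0.461 (adjusted p = 0.0482), by 17.4%. With DESeq2 size factors 6 passed for r and 5 for rho, and *Gsta4* passed for neither (adjusted p = 0.0556 and 0.0649), nor *Srxn1* for rho (adjusted p = 0.0649). Without the 2 kidneys farthest from the *Nqo1* median 4 relations passed for r, those of *G6pdx*, *Gsr*, *Txnrd1* and *Gclm*. *Srxn1* (adjusted p = 0.115) and *Gsta4* (adjusted p = 0.251) did not pass there. Within the 12 PKD kidneys 0 passed, with *Gsr*, *G6pdx* and *Gsta4* at an unadjusted permutation p under 0.05, and within the 12 PKD + Salsalate kidneys 2 did.

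A list of 73 other genes of the same pathways, of which 69 were tested, was read beside these. In PKD 14 were higher and 18 lower, 46.4%, close to the 49.1% over all genes. The largest rises were *Akr1b8*, an aldo-keto reductase, at 1.59 ± 0.12 (adjusted p = 3.02e-12), from 2.48, 3.16 and 4.14 CPM in wildtype to 7.76, 9.52 and 12.0 in PKD, and *Hpgds*, a transferase that makes prostaglandin D2, at 1.48 ± 0.15 (adjusted p = 1.84e-09). The largest falls were *Dpep1*, a brush border dipeptidase that completes the breakdown of glutathione after *Ggt1*, at -1.21 ± 0.095 (adjusted p = 4.28e-12), from 154, 176 and 207 CPM to 44.7, 77.1 and 97.7, and *Txnrd2*, the mitochondrial thioredoxin reductase, at -0.60 ± 0.073 (adjusted p = 4.3e-08). With salsalate 50 of the 69 had a positive value, and the median was 0.044. At an unadjusted p under 0.05, 10 were higher and 3 lower, beside 4.99% and 5.3% of all genes. After the adjustment 1 of the 69 passed, beside 0.58% of all genes. *Cbr1*, a carbonyl reductase, was at 0.42 ± 0.095 (adjusted p = 0.0273), with 34.7, 46.9 and 56.2 CPM in PKD and 49.6, 60.4 and 92.4 in PKD + Salsalate, and all 12 treated kidneys were above the PKD median.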

How the data were processed

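RNA of 32 kidneys was sequenced with a strand-specific kit. The authors trimmed reads with cutadapt 2.10, aligned them to GRCm39 with STAR 2.7.5a and counted them per Ensembl gene with HTSeq 0.12.4, and deposited raw counts. HTSeq leaves out reads that map to several places or to overlapping genes, so values of near-identical genes are uncertain. The share of windows of 100 bases that also occur in another annotated gene was 80.7% for *Gsta1*, 25.3% for *Gpx4*, 23.8% for *Gstp1* and 15.3% for *Gsta2*, and 0 for 33 of the 53 genes.

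The counts were analysed with edgeR 4.0.16 under R 4.3.3. A gene stayed in if its log2 CPM exceeded 1 in 25% or more of all libraries. Library sizes were scaled by TMM, and genes were tested 2-sided with the quasi-likelihood test, 3 groups in 1 fit, with Benjamini-Hochberg adjustment over 13961 genes and a threshold of 0.05. A second fit split wildtype by the library name. Alternatives used DESeq2 1.42.0 and limma 3.58.1. Permutation p-values used 100000 permutations within group. Of 53700 gene identifiers, 52610 were found in GENCODE M39; all 53 members matched. Symbols were matched through this release, whereas the counting used another release.

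The members and lists were chosen with earlier results of these data known. Genes given with group ranges are the regulators and main NRF2 readouts, the largest rise and fall past the threshold in each role group, and those that passed with salsalate; of the other pathway genes, the 2 largest rises, the 2 largest falls and those that passed with salsalate are named. Further members were described after their values were seen. Replicate numbers did not pair the samples. The labels do not say what the ending R of a library name marks. The authors' text gives postnatal day 95 for all mice, whereas the age label of the wildtype is 109 days. At the shallowest kidney, of 11193136 counts, precision is lowest. P-values of the group comparisons set a difference between groups against the spread between kidneys. Alternatives changed the scaling, test, filter and samples.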

Additional observations from a re-analysis of the deposited data

Results flagged for a closer look

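Among the 48 genes, 2 had a wildtype kidney that stood apart from the other 7 by more than Dixon's 95% critical value for 8 samples. In wildtype replicate 4, *Gstm5* was at 154.6 CPM with the next kidney at 118.5, a gap of 0.659 of the group's range. In the same kidney, *Prdx2* was at 338.2 CPM with the next at 285.4, a gap of 0.559 of the range. Chance flags about 1 in 20 groups. Groups of 12 were not examined in this way. Without this kidney, *Prdx2* no longer passed in PKD against wildtype, at -0.099 (adjusted p = 0.0761), and the count of members that passed there was 23.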

How the results depend on the processing

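The number of members called in PKD against wildtype stayed within 1.5 times of 27 under every alternative run (other scaling, tests, filters, samples, a replicate block), as did the 18 in PKD + Salsalate against wildtype, but the split by direction did not. The 11 higher and 16 lower in PKD became 14 and 11 with only the libraries ending in R and 5 and 21 with only the 3 others, and the 8 and 10 in PKD + Salsalate became 16 and 9, and 7 and 14. Among all genes tested, the 6852 that passed in PKD became 8297 and 5660, and the 6269 in PKD + Salsalate became 8082 and 4844. In PKD + Salsalate against PKD the count of 1 became 4 with the DESeq2 Wald test, 5 with only the 2 groups compared, 2 with only the 5 wildtype libraries ending in R and 6 with only the 3 others. A replicate block gave 24 members in PKD against wildtype, 1 in PKD + Salsalate against PKD and 18 in PKD + Salsalate against wildtype. Over all genes, the 81 called in PKD + Salsalate against PKD became 199 with the DESeq2 Wald test, 195 with only the 2 groups, 146 with limma-voom, 48 with the replicate block, 145 with only the libraries ending in R, 257 with only the 3 others, and between 39 and 226 without 1 kidney (226 without PKD + Salsalate replicate 11). The replicate numbers did not pair the samples, with correlations between same-numbered treated and untreated kidneys from -0.401 to 0.406 and 1 of 12 matching best. Leaving out 1 kidney gave between 23 and 29 members in PKD against wildtype, between 1 and 2 in PKD + Salsalate against PKD (2 without PKD + Salsalate replicate 11, which added *Gstt3*), and between 15 and 21 in PKD + Salsalate against wildtype. The 7 transferases higher with salsalate at an unadjusted p under 0.05, a count chosen after seeing the data, were 7 or 8 in all fits.

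Against only the 3 wildtype libraries without R, 2 genes changed sign among those that passed in that fit or in the main fit. Changes of sign in genes that passed in neither fit were not counted. *Prdx6* was at -0.22 in PKD and -0.21 in PKD + Salsalate, and *Sod3* at -0.32 and -0.33. With all wildtype libraries *Prdx6* was at 0.0028 and 0.0058, and *Sod3* at 0.33 and 0.31. The covariation with *Nqo1* passed for 7 genes, for 6 genes with DESeq2 size factors and for 4 genes without the 2 farthest kidneys. It passed for 0 genes within the 12 PKD kidneys alone and for 2 genes within the 12 PKD + Salsalate kidneys alone. The cause of these shifts was not tested. The 5 genes that did not pass the filter were too low to be tested.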
